A study of Mus musculus with 3 samples.

Results

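Conventional dendritic cells of the mouse cochlea were described here from single-cell RNA counts. A barcode was taken as such a cell if it had at least 50 UMIs of the MHC class II genes H2-Aa, H2-Ab1 and Cd74 per 10000 UMIs, at least 1 UMI of Flt3, none of Cd79a, at most 1 of Siglech and at most 2 of C1qa, C1qb and C1qc together. A UMI, or unique molecular identifier, marks 1 captured RNA molecule. Of 37188 kept barcodes, 132 met these limits. The cells were thus chosen by RNA values of these genes, so their levels in the cells are a description and no finding.

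The series holds 3 samples of cochlea from C57BL/6J mice, each made as 1 library from 6 mice. Control mice were not exposed to the noise, HHL mice were exposed to 110 dB for 2 hours, and NIHL mice were exposed to 115 dB for 4 hours on 3 days. Tissue was collected 6 hours after the last exposure, and the strain and tissue were shared by every group. Age and sex are not given in the labels used here. All cells stand in 1 table in which the number at the end of a barcode, 1, 2 or 3, matches no label, so the 3 libraries were numbered by it and assigned to no group. With 1 pool of mice per library no test between libraries was possible, and intervals below cover counting error only.

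Conventional dendritic cells, or cDCs, take up antigen in tissue and present it to T cells. They depend on the cytokine FLT3L, which acts on the receptor Flt3, and fall into cDC1, which excel at cross-presenting antigen on MHC class I to CD8 T cells, and cDC2, which mainly present on MHC class II to CD4 T cells. After activation both can mature, gain the chemokine receptor CCR7 and migrate to lymph nodes. In the inner ear, resident immune cells are mostly macrophages, and cDCs are a minor population.

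Libraries 1, 2 and 3 held 16883, 9602 and 10703 kept barcodes, of which 51, 42 and 39 were cDCs. Their shares of kept barcodes were 0.302% (exact 95% interval 0.225 to 0.397%), 0.437% (0.315 to 0.591%) and 0.364% (0.259 to 0.498%). The 3 intervals overlapped. The cDCs of library 3 held more UMIs, with a median of 14212 UMIs per cell against 7847 in library 1 and 7827.5 in library 2. When every barcode was thinned to 1500 UMIs first, 10, 11 and 11 barcodes met the limits, or 0.0617%, 0.121% and 0.109%. Barcode sequences were shared between libraries 50, 57 and 37 times over the pairs 1 and 2, 1 and 3, and 2 and 3, and no barcode of a cDC occurred in another library. Scrublet, a doublet caller, marked 2, 3 and 3 of the cDCs, which were kept.

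RNA of other blood cells differed between libraries, also inside the cDCs. The 8 red cell genes summed to 65.4, 10382 and 10800 CPM in libraries 1, 2 and 3, where CPM is UMIs of a gene per 1000000 UMIs of the summed cells. A single cell held 76.1% of this sum in library 2 and another 69.2% in library 3, and the medians per cell were 0, 27.7 and 13.5 UMIs per 10000. In library 1, 5 of the 8 were detected and the red cell genes Alas2 and Slc4a1 were among those at 0. All 10 neutrophil genes were detected in each library, with sums of 12509, 9358 and 3369 CPM, and every cDC had at least 10 neutrophil UMIs. A single cell held 48.4% of the neutrophil sum in library 1, another 49.0% in library 2 and another 8.88% in library 3. Per cell the neutrophil sum had medians of 33.6, 26.1 and 30.4 per 10000, with 17.3 to 1391 in library 1, 15.4 to 1059 in library 2 and 22.8 to 312 in library 3. Of the 10 B cell markers, Cd79a was absent by the rule and Pax5 was also at 0, and of 10 T and NK cell markers Klrb1c and Ncr1 were at 0. A single cell of library 2, marked as a doublet, held 98.5% of the T and NK cell UMIs of that library. The part of this RNA in the results below was not tested.

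**Figure D1:**
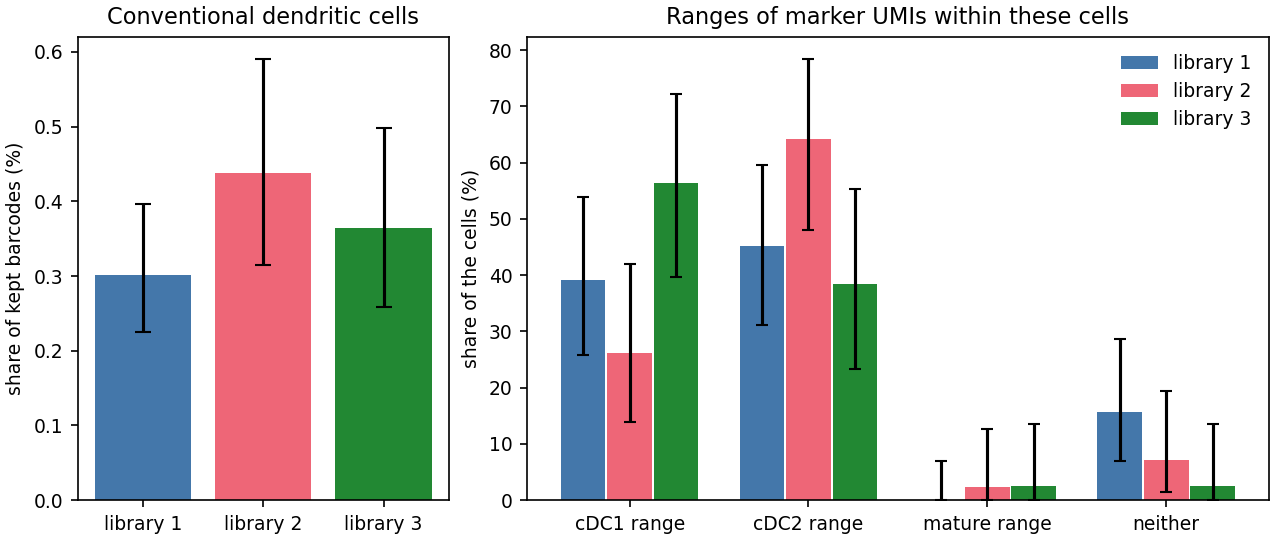
Left, cDCs as a share of kept barcodes (%) in the 3 libraries; right, share of those cDCs (%) in 4 ranges of marker UMIs. Bars are values, error bars exact 95% binomial intervals; the shares of cDCs run from 0.302 to 0.437%, and 26.2 to 56.4% of them were in the cDC1 range.

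Cells lay on both sides of each limit. The class II sum ran from 50.2 to 545 UMIs per 10000, with a median of 205, and 5 cDCs lay between 50 and 60, while 10 barcodes that met every other limit lay between 40 and 50. Flt3 was seen at 1 UMI in 69 cDCs and at 2 or more in 63, and 160 barcodes met every limit but had no Flt3 UMI. Those 160 class II cells without Flt3 are the nearest neighbours of the cDCs. Another 9 barcodes were left out for Cd79a alone, 33 for Siglech alone and 10 for C1q genes alone, while 18 cDCs carried 1 or 2 C1q UMIs, of which 0, 6 and 12 were in libraries 1, 2 and 3.

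Genes of cDC identity that the rule did not use were present. Cst3, which encodes the protease inhibitor cystatin C and is abundant in cDCs, stood at 9616, 12732 and 11296 CPM in libraries 1, 2 and 3, against 4909 CPM in class II cells without Flt3, 1103 in plasmacytoid barcodes and 1603 in macrophage barcodes. Every library was above each of these neighbours for Cst3, but the cDC2 range, defined below, was not above class II cells without Flt3. Zbtb46, a transcription factor typical of cDCs among immune cells, was at 37.1, 22.03 and 33.6 CPM, and at 9.94 in class II cells without Flt3. Batf3, needed for cDC1 development, was at 103, 115 and 129 CPM, and at 56.3, 2.05 and 13.2 in those 3 neighbours. Id2, an inhibitor of E proteins that restrains plasmacytoid fate, was at 733, 756 and 699 CPM against 60.9 CPM in plasmacytoid barcodes. Lyz2, the lysozyme of monocytes and macrophages, ran the other way, with 1675 CPM over all cDCs and 6750.1 in class II cells without Flt3. Over the 4049 genes with at least 50 UMIs, 2.49% were at least 2-fold higher in cDCs than in class II cells without Flt3 and 1.63% at least 2-fold lower. The 10 genes with the highest ratio of cDCs to those cells, leaving aside Flt3 itself, included Itgae, the integrin CD103, at 46.1 against 4.14 CPM, Gcsam at 45.4 against 5.80, the DNA-degrading enzyme gene Dnase1l3 at 178 against 11.6 and Serpinb6b, a protease inhibitor gene, at 152 against 20.7.

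Ratios of antigen presentation genes between libraries lay near those of all genes. H2-Aa and H2-Ab1, the α and β chains of I-A, and Cd74, the invariant chain that guides class II assembly, chose the cells. H2-Eb1, the β chain of I-E, was not used by the rule and measured 2819, 4874 and 3217 CPM in libraries 1, 2 and 3, highest in library 2. Over the 17 class II pathway genes with at least 20 UMIs, the median log2 ratio of a library to the geometric mean of the other 2 was -0.08, 0.19 and -0.19, beside 0.11, -0.13 and 0.07 over all 6943 such genes. H2-Aa, H2-Ab1 and Cd74 are among the 17, so the choice of cells shaped part of these list values. None was at least 2-fold higher in a library, where 5.21%, 3.99% and 7.03% of those 6943 genes were higher in libraries 1, 2 and 3. Of the 17, 1 was at least 2-fold lower in library 1, where 4.18% of genes were, and in library 2 1 was, where 9.19% were. By construction the 3 ratios of a gene sum to 0, so that a rise in 1 library lowers the others.

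The class I and cross-presentation list had medians of 0.15, -0.15 and 0.07 over 15 genes. B2m, the class I light chain, was at 1553, 1968 and 1832 CPM, and Psmb8, a subunit of the immunoproteasome that cuts peptides for class I, at 624, 605 and 890.4 CPM. Psmb8 was highest in library 3 and B2m in library 2.

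Class II promoters carry a Y box, the site of the factor NF-Y, and 2 of them are shown because these genes encode chains of I-A and I-E; capitals mark the letters CTGATTGG. The sequences are RefSeq's, build GRCm38.p6, and give the 250 bases before the start of the gene. H2-Aa is at chr17:34287824-34288073, minus strand, and H2-Eb1 at chr17:34305617-34305866, plus strand.
H2-Aa: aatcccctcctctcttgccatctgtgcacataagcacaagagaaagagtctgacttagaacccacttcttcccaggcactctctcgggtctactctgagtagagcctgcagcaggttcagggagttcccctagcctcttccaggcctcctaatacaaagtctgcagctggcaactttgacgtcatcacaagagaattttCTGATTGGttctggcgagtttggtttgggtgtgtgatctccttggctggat
H2-Eb1: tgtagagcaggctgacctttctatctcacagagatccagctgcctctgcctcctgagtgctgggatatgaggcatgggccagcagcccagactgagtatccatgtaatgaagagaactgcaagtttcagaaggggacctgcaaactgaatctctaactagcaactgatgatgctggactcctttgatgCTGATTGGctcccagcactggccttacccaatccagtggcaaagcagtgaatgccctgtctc
The 8 letters began 51 bases before the start of H2-Aa and 62 before that of H2-Eb1. Searched on both strands, they occurred in 4 of the 14 class II pathway genes with a promoter in the table (H2-Aa, H2-Eb1, H2-Eb2 and H2-Oa). Counted by window, from 250 bases before to 50 after a start, they were in 4 of the 18 windows of these genes and in 4.10% of all 32851.

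The cells were then cut by marker UMIs into ranges, which are ranges of a score and not cell types. A cell was in the mature range with at least 5 UMIs of Ccr7, Fscn1, Ccl22, Il4i1 and Cacnb3. Otherwise it was in the cDC1 range with at least 2 UMIs of Xcr1, Clec9a, Tlr3, Cadm1, Itgae, Snx22 and Gcsam, more than of the other set, and in the cDC2 range with at least 2 UMIs of Cd209a, Clec10a, Mgl2, Clec4a4, Sirpa and Klf4, more than of the first. The cDC1 range held 53 cells and the cDC2 range 65, with 2 mature cells and 12 in neither. Library 1 had 20 cDC1 and 23 cDC2 cells, library 2 had 11 and 27, and library 3 had 22 and 15. As shares of the cDCs the cDC1 range was 39.2%, 26.2% and 56.4% in libraries 1, 2 and 3, and the intervals of libraries 2 (13.9 to 42.0%) and 3 (39.6 to 72.2%) overlapped. The cDC2 range was 45.1%, 64.3% and 38.5%.

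The cDC1 cut was sharper than the cDC2 cut. Cells of the cDC1 range had a median of 23 UMIs of its genes, and 6 of 53 had 2 or 3. Those of the cDC2 range had a median of 5, and 17 of 65 had 2 or 3. Xcr1, the receptor for the chemokine XCL1, was seen in 41 of 53 cDC1 cells and in 0 of 65 cDC2 cells, and Cd209a, a C-type lectin, in 23 cDC2 cells and in 0 cDC1 cells. Both are range genes, so the cut itself shaped this split. Among all cDCs, 28 had at least 2 UMIs of both sets of range genes. The cells of the cDC1 range were deeper, at a median of 13561 UMIs against 7142. The part of this depth in the numbers of cells per range was not tested. In barcodes thinned to 1500 UMIs, 50%, 0% and 18.2% of the 10, 11 and 11 cells left were in the cDC1 range in libraries 1, 2 and 3.

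**Figure D2:**
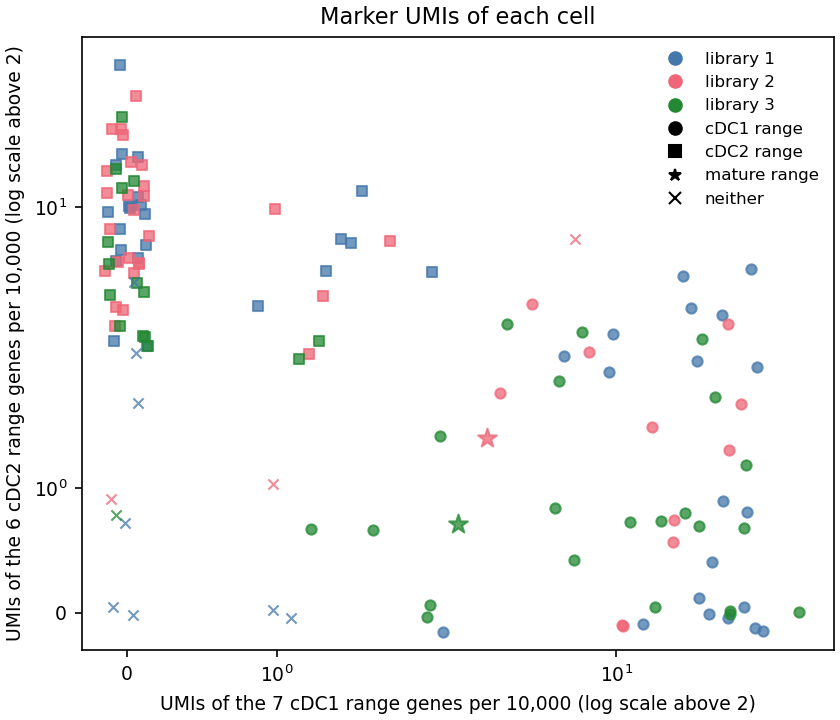
Each point is a cDC; x, UMIs of the 7 cDC1 range genes and y, UMIs of the 6 cDC2 range genes, both per 10,000 UMIs (log scale above 2), with colour for library and symbol for range. The cDC1 cells lie to the right and most cDC2 cells at or near 0 on the x axis, with 12 cells in neither range.

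Genes that took no part in the cut also differed between the ranges. Of 4049 genes, 5.26% were at least 2-fold higher in the cDC1 range and 8.17% in the cDC2 range. Of genes with at least 20 UMIs these shares were 6.84% and 10.4% of 6943. All 12 cDC1 markers were at least 2-fold higher in the cDC1 range, of which 5 (Naaa, Wdfy4, Rab7b, Tlr11 and Irf8) were not used to cut it. Irf8, the transcription factor that directs cDC1 development, was at 1839, 1713 and 1472 CPM in the cDC1 cells of libraries 1, 2 and 3 and at 635, 160.3 and 373 in the cDC2 cells. The groups did not overlap.

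Naaa, which encodes a lysosomal amidase, was at 889.7 CPM in the cDC1 range and 120.4 in the cDC2 range, a 7.39-fold difference. Wdfy4, needed for cross-presentation of cell-bound antigen, was at 639 CPM in the cDC1 range and 101 in the cDC2 range. Rab7b, a small GTPase of late endosomes, was at 291 CPM in the cDC1 range and 48.6 in the cDC2 range, and Ppt1, a lysosomal thioesterase, at 1049 CPM in the cDC1 range and 66.0 in the cDC2 range. Each of these was higher in the cDC1 range in 3 of 3 libraries, as was Cd36, a scavenger receptor, at 139 CPM in the cDC1 range and 7.77 in the cDC2 range. Tlr11, which senses profilin, was at 64.6 CPM in the cDC1 range and 1.94 in the cDC2 range, and Hepacam2, Rasgrp3, Gpr141b and Qpct were each between 63.4 and 105 CPM in the cDC1 range and at most 3.88 in the cDC2 range.

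Of the 10 identity genes, 4 were at least 2-fold higher in the cDC1 range and 2 in the cDC2 range, where 6.84% and 10.4% of 6943 genes were. The 2 were Relb, an NF-kB subunit, at 17.7 CPM in the cDC1 range and 46.6 in the cDC2 range, and Kmo, an enzyme of tryptophan breakdown, at 40.6 CPM in the cDC1 range and 91.3 in the cDC2 range. Cst3 was at 15331 CPM in the cDC1 range and 4156 in the cDC2 range, Batf3 at 155 CPM in the cDC1 range and 52.4 in the cDC2 range and Id2 at 942 CPM in the cDC1 range and 349.6 in the cDC2 range. Flt3, a gene of the rule, was at 142 CPM in the cDC1 range and 216 in the cDC2 range. The rule asks each cell for at least 1 Flt3 UMI, which is a larger CPM in the shallower cells of the cDC2 range, so this contrast is no finding. Zbtb46 was at 41.8 CPM (interval 28.8 to 58.7) in the cDC1 range and 15.5 (6.71 to 30.6) in the cDC2 range, and the intervals overlapped. Set against class II cells without Flt3, the cDC2 range was lower for Cst3 (4156 against 4909 CPM) and Batf3 (52.4 against 56.3). It was higher for Zbtb46 (15.5 against 9.94). The 10 identity genes summed to 17118 CPM in the cDC1 range, 5370 in the cDC2 range and 5925 in class II cells without Flt3. H2-Eb1 was at 4123 CPM in the cDC1 range and 2845 in the cDC2 range.

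Of 9 monocyte genes with at least 20 UMIs, 5 were at least 2-fold higher in the cDC2 range and none in the cDC1 range, and of 9 chemokine genes 6 were higher in the cDC2 range and 1, Cxcl9, in the cDC1 range. Beside these counts stand 10.4% of 6943 genes higher in the cDC2 range and 6.84% in the cDC1 range. Wfdc17, a gene of activated myeloid cells, was at 63.4 CPM in the cDC1 range and 903 in the cDC2 range, and the chemokines Ccl9 and Ccl6 were at 27.9 and 50.7 CPM in the cDC1 range against 284 and 449. Csf1r, the receptor for the macrophage growth factor CSF1, was at 11.4 CPM in the cDC1 range and 146 in the cDC2 range, and Cx3cr1, the fractalkine receptor, at 7.60 CPM in the cDC1 range and 136 in the cDC2 range. Lyz2 was at 989 CPM in the cDC1 range and 3069 in the cDC2 range and Ccr2, the receptor that draws monocytes to inflamed tissue, at 285 CPM in the cDC1 range and 845 in the cDC2 range. All of these were higher in the cDC2 range in each library. For Lyz2 the libraries were at 1639, 690.1 and 734 CPM in the cDC1 range and 2264, 5187 and 943 in the cDC2 range, so that the ranges overlapped across libraries but not within one. For Csf1r they were at 30.4, 0 and 5.04 CPM and 126, 209 and 77.4, with no overlap.

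Of 8 cDC2 markers with at least 20 UMIs, 6 were at least 2-fold higher in the cDC2 range, where 10.4% of 6943 genes were. Of these 6, only Itgam and Tnip3 were not used to cut it. Clec12a, another listed gene not used in the cut, was at 163 CPM in the cDC1 range. In cDC2-range cells it was at 118 CPM with a UMI of Cd209a, Clec10a or Mgl2 and at 157 CPM without. Itgam, the integrin CD11b, was at 31.7 CPM in the cDC1 range and 146 in the cDC2 range. The receptors for microbial products differed by range. Tlr2, which senses bacterial lipoproteins, was at 19.0 CPM in the cDC1 range and 173 in the cDC2 range, and Tlr3, a range gene for double-stranded RNA, at 214 CPM in the cDC1 range and 1.94 in the cDC2 range. Il1b, an inflammatory cytokine, was at 346 CPM in the cDC1 range and 853 in the cDC2 range, Cxcr4, a receptor for CXCL12, at 53.2 CPM in the cDC1 range and 200.04 in the cDC2 range, Tnip3 at 8.87 CPM in the cDC1 range and 157 in the cDC2 range and Klrd1, a lectin of NK cells that also occurs on some dendritic cells, at 11.4 CPM in the cDC1 range and 115 in the cDC2 range.

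**Figure D3:**
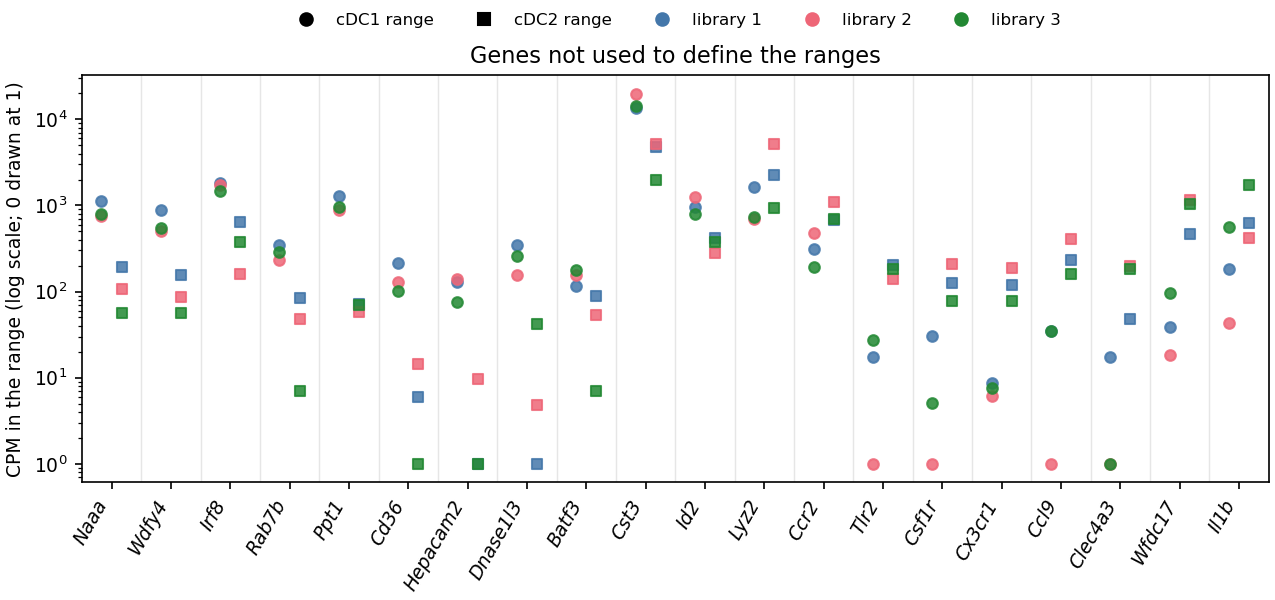
CPM (log scale, 0 drawn at 1) of 20 genes that were not used to define the ranges, in the cDC1 range (circles) and the cDC2 range (squares), 1 point per library. Within each library the 11 genes on the left are higher in the cDC1 range and the 9 on the right higher in the cDC2 range.

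The cDC2 range was mixed. A split made after the values were seen found 30 of its cells with a UMI of Cd209a, Clec10a or Mgl2 and 35 without, in numbers of 10, 16 and 4 and of 13, 11 and 11 in libraries 1, 2 and 3. Depth was nearly equal, at medians of 7140.5 and 7142 UMIs. The class II sum had a median of 247 per 10000 with these lectins and 122 without. Without them, Lyz2 was at 3720 CPM against 2251, Apoe, an apolipoprotein abundant in macrophages, at 841 against 56.9, Irf8 at 576 against 118, and Zbtb46 at 6.98 against 26.3. The intervals for Lyz2, Apoe and Irf8 did not overlap, and those for Zbtb46 (0.845 to 25.2 and 9.64 to 57.2) did. They cover counting error of summed UMIs and not the spread between cells, and a single cDC held 83 Apoe UMIs. The part of the unequal library numbers in this split was not tested. Of the macrophage list, 13 of 13 genes were detected in the cDC2 range, with a sum of 812 CPM against 157 in the cDC1 range, and of the monocyte list 10 of 10, with 7837 CPM against 3763.

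The mature range held 2 cells, 1 in library 2 and 1 in library 3, and none was seen among the 51 cDCs of library 1, which allows a share of up to 5.88% when 3 cells are taken as the limit of a count of 0, and up to 6.98% by the exact interval. The library 2 cell had 39 UMIs of Ccr7, the receptor for lymph node homing, and 27 of Fscn1, the actin-bundling protein fascin, and the library 3 cell had 40 and 32. Il12b, the p40 subunit of IL-12 and IL-23, was not a range gene and had 43 and 68 UMIs in them, and the T cell chemokine gene Ccl5 had 26 and 47. No T cell gene Cd3e or Trac UMI was present and neither cell was marked as a doublet. All cDCs together had 114 UMIs of Il12b, so these 2 cells held nearly all. The library values of Il12b (4.36, 105 and 122 CPM), Ccr7 (0, 95.5 and 77.9 CPM) and Fscn1 (2.18, 66.1 and 56.6 CPM) are therefore values of single cells.

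Between libraries, 2.45% of 4049 genes were at least 2-fold higher in library 1 than in the other 2, 1.93% in library 2 and 4.74% in library 3, and 2.25%, 5.48% and 3.11% were at least 2-fold lower. The split moved with the scaling: with TMM factors 65, 126 and 169 genes were higher and 121, 140 and 145 lower in libraries 1, 2 and 3, against 99, 78 and 192 higher and 91, 222 and 126 lower as CPM. The type I interferon response list holds genes which interferon induces through STAT and IRF factors. Of 14 list genes with at least 20 UMIs, 10 were at least 2-fold higher in library 3, where 7.03% of 6943 genes were, and 13 of 14 were highest there. The exception, Stat2, is named after its value was seen. The median log2 ratio was -0.19, -1.16 and 1.44 in libraries 1, 2 and 3, beside 0.11, -0.13 and 0.07 over all genes.

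Isg15, a ubiquitin-like protein that is conjugated to others after interferon, was at 50.2 (interval 31.8 to 75.3), 36.7 (20.6 to 60.6) and 320.4 (275 to 371) CPM. Trim30a, a ubiquitin ligase, was at 155, 103 and 301 CPM and Bst2, which tethers budding virus, at 185, 159 and 319 CPM. For all 3, the interval of library 3 lay above those of the others. Ifi44, of unclear molecular function, was at 37.1, 9.79 and 63.7 CPM, and library 2 was lowest.

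Both ranges had the pattern. Isg15 was at 60.8, 24.6 and 144 CPM in the cDC1 cells of libraries 1, 2 and 3 and at 53.9, 38.9 and 859 in the cDC2 cells. The median ratio of library 3 was 0.99 over 10 genes in the cDC1 range, with 5 at least 2-fold higher, where 8.98% of 4909 genes were, and 2.48 over 13 in the cDC2 range, with 12 at least 2-fold higher, where 8.32% of 3859 were. The sum over the list, taken per cell, had medians of 8.41, 6.70 and 19.4 UMIs per 10000 in libraries 1, 2 and 3.

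Library 3 was highest among the neighbours as well. Isg15 was at 119, 98.5 and 379 CPM in class II cells without Flt3, at 21.5, 13.8 and 130.5 in plasmacytoid, at 94.8, 88.7 and 316 in macrophage and at 3.29, 17.9 and 119 in mature B barcodes. In all 4 library 3 exceeded libraries 1 and 2. The neutrophil and red cell sums given above also differed between libraries, and their part in this result was not tested.

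Promoters of these genes often hold the core of the interferon-stimulated response element, and those of Isg15 and Trim30a are shown because their values carry the pattern; capitals mark its core, a GAAA and a second GAAA with 2 bases between them, on either strand, and in Isg15 the matches overlap. Isg15 is at chr4:156200819-156201068, minus strand, and this Trim30a window at chr7:104465194-104465443, minus strand, RefSeq, GRCm38.p6.
Isg15: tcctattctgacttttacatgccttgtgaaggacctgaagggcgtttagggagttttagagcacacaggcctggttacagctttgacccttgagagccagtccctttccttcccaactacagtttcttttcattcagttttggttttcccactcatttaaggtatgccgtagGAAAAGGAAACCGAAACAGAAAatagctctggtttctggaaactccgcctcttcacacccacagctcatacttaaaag
Trim30a: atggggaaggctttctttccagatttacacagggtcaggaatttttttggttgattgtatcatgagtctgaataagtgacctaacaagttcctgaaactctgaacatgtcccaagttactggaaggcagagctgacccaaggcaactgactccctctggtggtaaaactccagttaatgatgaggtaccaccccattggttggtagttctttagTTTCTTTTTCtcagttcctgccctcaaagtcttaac
The 3 matches in Isg15 began 78, 72 and 66 bases before the start, and the match in Trim30a, on the other strand, 36 bases before it. The core was found in 8 of 15 listed genes with a promoter in the table (Bst2, Ifit1, Ifit3, Isg15, Oas1a, Rsad2, Stat2 and Trim30a). Counted by window, it was in 9 of their 18 windows and in 3.44% of all windows. Stat2, with a match, was highest in library 1. Of 9 heat shock genes with a promoter in the table, none had the core in their 14 windows, which are too few to set against 3.44%.

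**Figure D4:**
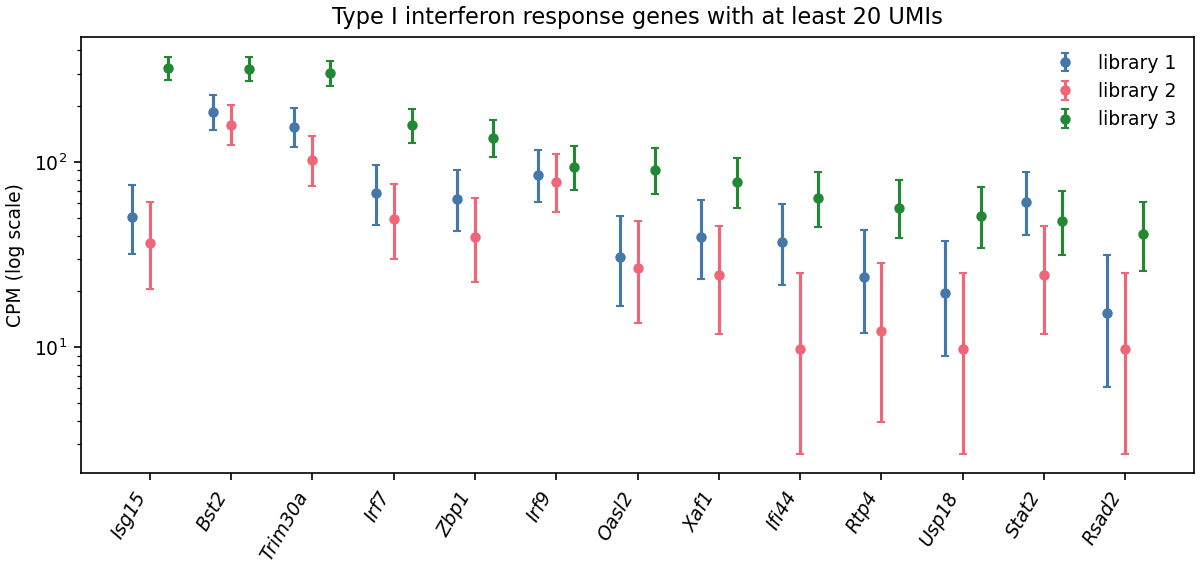
CPM (log scale) of 13 type I interferon genes with at least 20 UMIs in the cDCs of libraries 1, 2 and 3, with exact 95% Poisson intervals. Library 3 is highest in 12 of these 13, and Isg15 is at 320 CPM there against 50.2 and 36.7.

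The related guanylate-binding and IRG genes, which defend cells against pathogens in vacuoles, had a median of 0.78 in library 3, with 3 of 8 at least 2-fold higher, where 7.03% of 6943 genes were. Gbp7 was at 13.1, 14.7 and 58.4 CPM and Ifi47 at 26.2, 36.7 and 72.6 CPM. Library 3 was highest for both. In the cDC1 range alone the median of the list was 0.11 in library 3, and in the cDC2 range alone 2.31.

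Heat shock genes, the chaperones of protein stress, had a median of 1.06 in library 3, with 5 of 9 at least 2-fold higher, where 7.03% of 6943 genes were. That median fell to 0.57 without called doublets, 0.65 with 2 Flt3 UMIs required and 0.49 with 100 class II UMIs per 10000 required. Hsp90aa1 was at 484, 443 and 991 CPM, Dnaja1, a co-chaperone, at 257, 174 and 483 CPM and Hspa8, the constitutive Hsp70, at 1728, 1643 and 2546 CPM. Hsph1 was at 26.2, 14.7 and 69.0 CPM. Immediate-early genes, which dissociation and other stimuli induce quickly, had medians of 0.21, 0.05 and -0.13 over 12 genes, with none at least 2-fold higher in library 3, where 7.03% of genes were. With 100 class II UMIs per 10000 required, their library 3 median was 0.42, beside the 0.49 of the heat shock genes. Fos was at 696, 781 and 819.6 CPM and Junb at 870.4, 869 and 797 CPM.

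Cell cycle genes were detected in many of the cells. All 13 genes of G2 and M phase were highest in library 3, as were 2587 of all 6943 genes, with a median of 0.79. Of the 13, 3 were at least 2-fold higher, where 7.03% of genes were. With at least 100 class II UMIs per 10000 required, the library 3 median was -0.48. Top2a, which untangles DNA, was at 539, 277 and 669 CPM, Mki67, a marker of cycling cells, at 482, 291 and 526 CPM and Plk1, a mitotic kinase, at 37.1, 34.3 and 97.4 CPM. Without 1 cell Mki67 in library 3 was at 476 CPM, below library 1. Cells with at least 2 UMIs of Mki67 and Top2a were 27 of 51, 14 of 42 and 25 of 39, or 52.9%, 33.3% and 64.1%. With every cell thinned to 3000 UMIs and 1 UMI asked for, the shares were 46.0%, 29.3% and 63.2%, and 1 shallower cell was left out in each library. At full depth the intervals of libraries 2 (19.6 to 49.5%) and 3 (47.2 to 78.8%) overlapped. The thinned intervals of libraries 2 (16.1 to 45.5%) and 3 (46.0 to 78.2%) did not overlap, and they cover counting error only. Thinned alike, class II cells without Flt3 were at 45.3%, 29.8% and 54.3%, in the same order as the cDCs. Mature B barcodes were at 59.5%, 24.6% and 49.6% and macrophages at 38.3%, 29.6% and 49.4%, while plasmacytoid barcodes were at 61.3%, 58.9% and 45.1%. Library 2 was lowest in class II cells without Flt3, B cells and macrophages and library 3 in plasmacytoid barcodes. Of the S phase genes, with a median of 0.50 in library 3, Pcna, the sliding clamp of replication, was at 133, 149 and 211 CPM. With 100 class II UMIs per 10000 required, the S phase median was -0.36 in library 3 and 0.78 in library 2.

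Among cytokine and signalling genes, Il1b was at 343, 239.9 and 834 CPM, with a library 3 log2 ratio of 1.54. Nfkbia, an inhibitor that NF-kB induces as feedback, was at 393, 308 and 671 CPM, Nfkbiz at 142, 58.7 and 212 CPM, and the NF-kB list had a median of 0.43 in library 3. The chemokines Ccl4 (189.8, 44.1 and 249.6 CPM) and Ccl6 (233, 348 and 79.7 CPM) differed between libraries, with Ccl6 lowest in library 3. In library 3, 1 cell held 30.1% of the Ccl4 UMIs of all cDCs, and without it that library was at 120 CPM, below library 1. Of costimulatory genes, Cd86 was at 122, 36.7 and 69.0 CPM, Cd83 at 142, 127 and 158 CPM and Icam1, an adhesion ligand, at 116, 88.1 and 129 CPM. Only Cd86 of these 3 had a library past 2-fold, library 1 above and library 2 below.

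The cDC2 markers were lowest in library 3, with a median of -1.09 over 8 genes and 5 at least 2-fold lower, where 5.70% of 6943 genes were. Sirpa, the CD47 receptor, was at 100.3, 132 and 46.0 CPM and Klf4, a transcription factor, at 196, 218 and 115 CPM. Lyz2, a gene of the monocyte list, was at 1706, 2911 and 756 CPM. Library 3 also had the fewest cDC2-range cells, and within that range alone the median of the cDC2 markers was -0.75 there. For the cDC1 markers, of medians 0.33, -0.45 and 0.13, library 2 was lowest. Within the cDC1 range alone the medians were 0.31, 0.079 and -0.35, and library 3 was lowest. Both marker lists hold genes that cut the ranges, so the cut at 2 UMIs itself shaped these values within a range. Cells of the cDC1 range had median depths of 9557.5, 13969 and 15357.5 UMIs in libraries 1, 2 and 3. The part of depth was not tested. Over all cDCs Xcr1 was at 386, 176 and 267 CPM and Wdfy4 at 534, 252 and 402 CPM.

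Median ratios of transcription factors lay nearer to 0. The DC factor list had medians of 0.17, 0.04 and -0.09 over 20 genes. Of the 20, 3 were at least 2-fold lower in library 3, where 5.70% of 6943 genes were. In library 1, 1 was at least 2-fold higher and 1 lower, where 5.21% and 4.18% were. Spi1, the master factor PU.1, was at 351, 286 and 382 CPM, Rel, an NF-kB subunit, at 271, 277 and 370.0 CPM and Irf8 at 1278, 857 and 1149 CPM. The growth factor receptor list had a median of -0.53 in library 3, with 2 of 13 at least 2-fold lower, where 5.70% of 6943 genes were. In library 2, 1 was at least 2-fold higher, where 3.99% were. Csf2ra, the GM-CSF receptor chain, was at 183, 139.5 and 149 CPM, Ifngr1 at 303, 330.5 and 234 CPM and the rule gene Flt3 at 189.8, 198 and 135 CPM. The rule asks each cell for at least 1 Flt3 UMI, which is a larger CPM in a shallower cell.

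**Figure D5:**
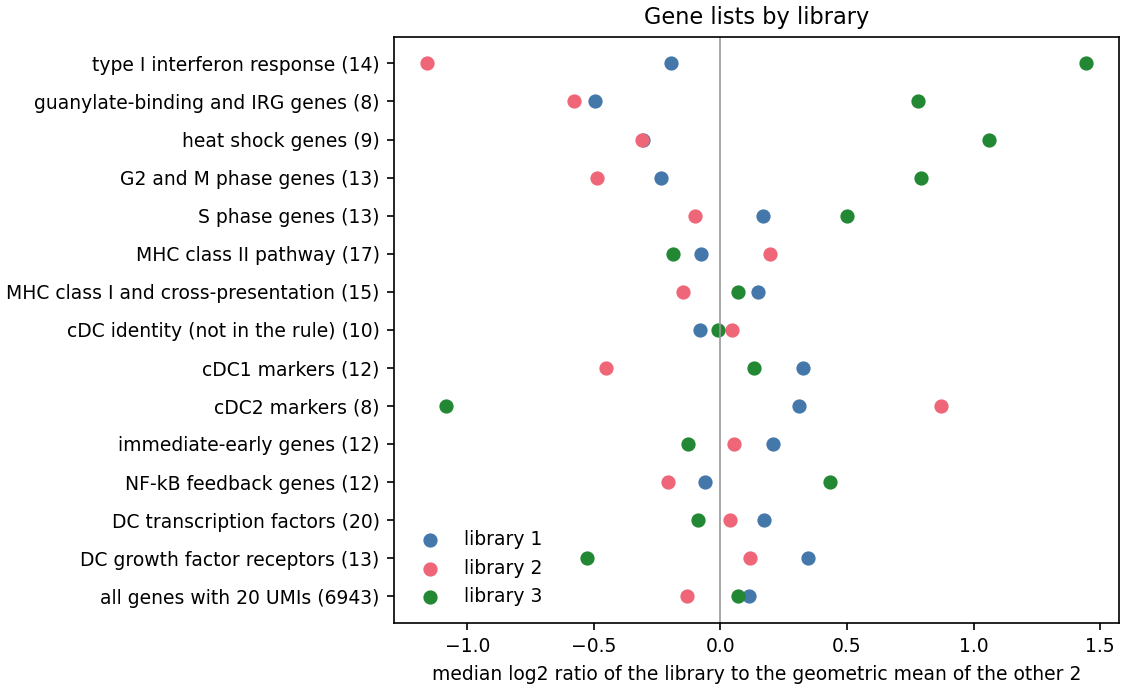
Median log2 ratio of each library to the geometric mean of the other 2 for 14 gene lists and for all genes with at least 20 UMIs; the number of genes is in brackets, and points are libraries. The type I interferon list is at 1.44 in library 3 and at -1.16 in library 2, while the class II list lies between -0.19 and 0.19. The class II list includes the rule genes H2-Aa, H2-Ab1 and Cd74.

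Some large differences between libraries came from 1 cell or from genes of other cell types. Mgp, a matrix protein of cartilage and bone, was at 4.36, 4.90 and 400.1 CPM, and 1 cell held 97.0% of its UMIs. Without that cell, library 3 was at 5.51 CPM. Coch, the main matrix protein of cochlear fibrocytes, was at 196, 31.8 and 308 CPM, and without its top cell library 3 was at 23.9 CPM. Saa3, an acute-phase protein, was at 2.18, 14.7 and 181 CPM, with 90.8% in 1 cell. Cxcl9, a T cell chemokine, was at 157, 4.90 and 44.3 CPM, and without 1 cell library 1 was at 22.4 CPM. The cochlear stroma list, 10 of 12 genes detected, reached 10 UMIs in 3 cells of library 1 and 1 of library 3. Among myeloid progenitor granule genes, Prtn3 was at 548, 49.0 and 404 CPM, Mpo at 388, 36.7 and 326 CPM and Elane at 558, 73.4 and 172 CPM. Library 2 was lowest for all 3. With 100 class II UMIs per 10000 required, the log2 ratio of library 1 to library 2 fell from 3.48 to 0.54 for Prtn3 and from 3.40 to 0.19 for Mpo, and turned from 2.93 to -1.11 for Elane. Without the top cell of each gene, Prtn3 in library 1 was at 334 CPM, Mpo in library 3 at 119 and Elane in library 1 at 289.7. S100a8, a neutrophil alarmin, was at 4760.1, 3087 and 1329 CPM, and without cells over 1% of UMIs of other cell types its log2 ratio of library 1 to library 3 was -0.32. Without 1 cell, library 1 was at 2447 CPM, below library 2. Hbb-bs, a β-globin gene, was at 32.7, 4323 and 5382 CPM, and 45.6% of its UMIs lay in 1 cell. Without that cell library 3 was at 1542 CPM, below library 2.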

How the data were processed

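Counts of UMIs per gene and barcode, unnormalized whole numbers, are what the authors deposited; the file headers name Cell Ranger 7.1.0, and the submitters' processing notes name GRCm39. Per the labels, 10x Genomics 3′ libraries were made. How cells were called and the libraries combined is not stated in these sources.

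Barcodes with at least 500 UMIs, at least 200 genes and at most 20% mitochondrial UMIs were kept. The rule for cDCs was then applied. Raw UMIs were summed over cells per library and given as CPM with exact Poisson intervals; shares have exact Clopper-Pearson intervals, both at 95%. A ratio compares a library with the geometric mean of the other 2, counts under 3 being set to 3. Genes needed 50 summed UMIs, list genes 20. Scrublet ran per library at an expected rate of 6% and marked 5.63%, 4.69% and 4.73% of kept barcodes. Comparison ranges were class II cells without Flt3 (the rule with no Flt3 UMI), plasmacytoid (at least 2 Siglech UMIs), macrophage (at least 3 C1q UMIs) and mature B (Cd79a and Cd79b). The cDC members and the 29 gene lists were chosen with earlier results of these data known. Named genes were those of the rule, up to 6 per list by level and by ratio, the 15 of largest library ratio, the 10 highest against class II cells without Flt3, the 10 of each range and defining markers; others are named as seen afterwards. A few list genes count in their lists but are not reported here by name. No test between libraries was made: a library is a single pool and its cells do not replicate it. The calculation was checked on simulated counts. Alternatives are in the closing section; edgeR 4.0.16 and DESeq2 1.42.0 gave scaling factors only. Python 3.11.15, scanpy 1.11.5 and R 4.3.3 were used.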

Additional observations from a re-analysis of the deposited data

How the results depend on the processing

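No paired analysis was possible because each group is 1 library and the barcode numbers match no label. A mitochondrial maximum of 10% moved no value out of its interval, no count by over 1.5 times and turned no direction. Under the 17 other settings the shares, gene counts and interferon medians that did one of these, and the single genes whose order turned, were as follows, and the cause was not tested. Without called doublets, the log2 ratio of the highest to the lowest library turned to -0.35 for Coch and -0.27 for Mgp. Requiring 2 Flt3 UMIs, the share of kept barcodes was 0.124% in library 1, 0.198% in library 2 and 0.215% in library 3, the cDC1 share was 66.7% in library 1, the cDC2 share was 28.6% in library 1, 63 genes in library 1 were called higher, 132 genes in library 2 and 64 genes in library 3 were called lower, the interferon median was -0.49 in library 1 and 1.70 in library 3 and the log2 ratio of the highest to the lowest library turned to -0.46 for Il12b and -0.46 for Saa3. Requiring 100 class II UMIs per 10000, the share of kept barcodes was 0.234% in library 3, 111 genes in library 3 were called higher, 136 genes in library 2 were called lower, the interferon median was 0.042 in library 1 and 1.24 in library 3 and the log2 ratio of the highest to the lowest library turned to -1.11 for Elane. Without cells over 1% of UMIs of other cell types, the interferon median was -0.39 in library 1 and the log2 ratio of the highest to the lowest library turned to -0.32 for S100a8. Without the 4 cells with 10 stroma UMIs (an alternative chosen after seeing the data), the log2 ratio of the highest to the lowest library turned to -0.41 for Coch and -0.35 for Mgp. Thinning to 1500 UMIs, the share of kept barcodes was 0.0617% in library 1, 0.121% in library 2 and 0.109% in library 3, the cDC1 share was 0% in library 2 and 18.2% in library 3 and the cDC2 share was 30% in library 1 and 36.4% in library 2. With range limits of 10 and 4 UMIs, the cDC2 share was 47.6% in library 2 and 23.1% in library 3. With Leiden clusters in place of ranges, the cDC1 share was 30.8% in library 3 and the cDC2 share was 17.6% in library 1, 31% in library 2 and 20.5% in library 3. With TMM factors, 65 genes in library 1 and 126 genes in library 2 were called higher and 140 genes in library 2 were called lower. With DESeq2 size factors, 147 genes in library 2 were called lower. With each cell weighted equally, the interferon median was -0.37 in library 1 and 1.59 in library 3. With a minimum of 10 UMIs, 557 genes in library 1, 471 genes in library 2 and 635 genes in library 3 were called higher and 383 genes in library 1, 704 genes in library 2 and 635 genes in library 3 were called lower. In the cDC2 range only, 60 genes in library 1, 46 genes in library 2 and 103 genes in library 3 were called higher, 51 genes in library 1 and 114 genes in library 2 were called lower, the interferon median was -0.42 in library 1, -1.84 in library 2 and 2.48 in library 3 and the log2 ratio of the highest to the lowest library turned to -0.30 for Ccr7, -0.69 for Coch and -0.30 for Fscn1. In the cDC1 range only (chosen after seeing the data), 43 genes in library 2 were called higher, 38 genes in library 3 were called lower, the interferon median was 0.12 in library 1, -0.68 in library 2 and 0.99 in library 3 and the log2 ratio of the highest to the lowest library turned to -0.34 for Apoe, -0.93 for Ccl9, -0.79 for Il12b and -0.088 for Lyz2. Without the 2 mature cells (also chosen afterwards), the interferon median was 1.58 in library 3 and the log2 ratio of the highest to the lowest library turned to -0.26 for Il12b. At 1.5-fold, 555 genes in library 1, 276 genes in library 2 and 621 genes in library 3 were called higher and 325 genes in library 1, 730 genes in library 2 and 429 genes in library 3 were called lower. Without the cell with the most UMIs of the gene (chosen afterwards), the log2 ratio of the highest to the lowest library turned to -0.41 for Coch, -0.26 for Il12b, -0.25 for Mgp and -0.23 for Saa3. Over every list and library, interferon included, 204 values of a median under a setting lay outside their limits and 342 inside, and of single-gene ratios 185 moved, 20 turned and 796 did neither. The library 3 median ran from 0.49 to 1.07 for the heat shock list, 0.11 to 2.31 for the guanylate-binding and IRG list, 0.18 to 0.85 for the NF-kB list, -0.48 to 1.22 for the G2 and M phase list, -0.36 to 0.82 for the S phase list, -0.17 to 0.42 for the immediate-early list, -1.20 to 0.44 for the cDC1 marker list, -1.13 to -0.75 for the cDC2 marker list and -0.57 to -0.14 for the growth factor receptor list. The interferon median of library 3 stayed above 0, between 0.99 and 2.48, under its 13 alternatives. Depth limits the shares: Flt3 was seen at 1 UMI in 69 of 132 cells. All libraries are single pools, so no difference can be set against the spread between mice.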

Other observations

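Leiden clustering of the 132 cDCs alone gave 6 clusters, which are given as values with no comparison between libraries. One of 33 cells was led by Il12b, Cxcl9, Ccr7, Fscn1, Serpinb6b and Dnase1l3, had all 12 cDC1 markers raised and held 31 cDC1-range cells and both mature cells. The mature cells held nearly all Il12b, Ccr7 and Fscn1 UMIs of the cDCs, and a single cell held 62 Cxcl9 UMIs. Those genes need not describe the rest of that cluster. One of 30 cells was led by Clec10a, Cd209a, Ptgs2 and Tnip3 and held 28 cDC2-range cells. One of 21 cells was led by the mitotic genes Cit, Ckap2, Ube2c and Cenpf and mixed both ranges. One of 24 cells, with the highest median depth of 17014 UMIs, was led by the matrix genes Mgp and Coch and the globin gene Hbb-bs. It had all 8 red cell genes, 7 of 10 neutrophil genes and 6 of 8 myeloid progenitor genes raised and no cDC1 or cDC2 marker. This cluster held 13 cDC1-range and 6 cDC2-range cells, and is given no cell type name. Among all cDCs, single cells held 223 Mgp, 161 Coch and 2199 Hbb-bs UMIs, so these leading genes need not describe the whole cluster. One of 14 cells led by Ifi203 and Ccl4 had too few markers raised for a name. The last, of 10 cells, was led by Apoe, Cx3cr1, Csf1r and Lyz2 and had 8 monocyte, 5 macrophage and 5 cDC2 markers raised. All 10 cells were in the cDC2 range, with 3, 7 and 0 in libraries 1, 2 and 3.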
